A study of Mus musculus with 32 samples.

Results

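The genes described here encode 8 cytokines made by T helper cells, chosen by name: Ifng, Il2, Il3, Csf2, Il17a, Il17f, Il21 and Il22. They are 8 of the 35968 genes to which the deposited transcript tables were summed. The measurements are RNA sequencing of regulatory T cells (Treg) and conventional CD4 T cells (Tconv) sorted from liver and spleen of male C57BL/6 mice that carry the Foxp3GFP reporter allele, in which green fluorescent protein marks cells making FOXP3. All 32 libraries, those of the control mice included, come from this reporter strain. Each of the 4 populations (liver Treg, liver Tconv, spleen Treg, spleen Tconv) has 5 libraries from mice given CCl4, a liver toxin that causes fibrosis, and 3 libraries from control mice. The labels give no age and no dose, route or duration of CCl4, nor whether each library of a group is from a different mouse. P-values therefore measure the spread between these samples, which may be technical.

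Interferon gamma, the product of Ifng, is the defining cytokine of Th1 cells and activates macrophages. IL-17A, IL-17F and IL-22 are products of Th17 cells and related lymphocytes that act largely on epithelial and stromal cells, hepatocytes among them, and IL-21 is the helper signal that follicular T cells give to B cells. IL-2 is the T cell growth factor on which Treg depend although they make little of it themselves, since FOXP3 represses the gene, while GM-CSF (Csf2) and IL-3 act on myeloid and haematopoietic cells. These genes are transcribed in bursts after a T cell is activated, through factors such as NFAT and AP-1, and their RNA is short-lived.

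Libraries held between 24513124 and 75292019 estimated counts. Foxp3 itself was at 909 CPM or more in every Treg library (CPM, counts scaled to library size with TMM normalization) and at 3.43 CPM or less in every Tconv library, and markers of T cells were high throughout, with 2960 to 5690 summed CPM over 6 genes. The spleen control libraries numbered 2 and 3 stood apart in both cell types. Fos, an AP-1 subunit and immediate early gene, was at 25.2 and 22.6 CPM in those spleen Treg controls and at 26.4 and 19.4 CPM in those spleen Tconv controls, against 711 to 1120 CPM in the other spleen libraries. Tests of the cytokines that use the spleen are therefore also given without these 4 libraries, but correlations over all libraries are not. In these bulk libraries, fewer cells that express a gene and less RNA per expressing cell cannot be told apart.

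The 8 genes lie in the mouse genome as 4 neighbouring pairs (GRCm38 coordinates, GENCODE M21 annotation). Il17a (chr1:20730905-20734496, plus strand) and Il17f (chr1:20777146-20790617, minus strand) are 42.6 kb apart. Il3 (chr11:54265303-54267277) and Csf2 (chr11:54247271-54249667), both on the minus strand, are 15.6 kb apart. Il2 (chr3:37120523-37125959) and Il21 (chr3:37222759-37232636), both on the minus strand, are 96.8 kb apart, and no protein-coding gene lies between the members of these 3 pairs. Ifng (chr10:118441046-118445892) and Il22 (chr10:118204942-118210047), both on the plus strand, are 231.0 kb apart with 9 protein-coding genes between them. One of those 9 is Iltifb, a near-identical copy of Il22: 579 of the 1080 stretches of 31 bases in the Il22 transcript (53.6%) also occur in Iltifb, so the assignment of reads between the pair is uncertain. Over all libraries Il22 was given 1628.5 estimated counts and Iltifb 236.5. Nearly all counts of Ifng (99.368%) and Il17f (97.182%) belonged to 1 protein-coding transcript, whereas 13.597% of those of Il21 belonged to a retained-intron transcript.

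The promoters of the pairs Il17a and Il17f, and Il2 and Il21, are shown because both genes of the first pair were higher in liver Tconv while of the second only Il2 was, with that of Ifng, the most abundant member. Each run is the 150 bases before the RefSeq start site (GRCm38.p6), 5′ to 3′ on the gene's strand, with capitals marking GGAAA (the NFAT core), TGANTCA (AP-1), TATAA (the TATA box) or AGGTCA (a nuclear receptor half-site), each searched on both strands.
Il17a, chr1:20730755-20730904, plus strand: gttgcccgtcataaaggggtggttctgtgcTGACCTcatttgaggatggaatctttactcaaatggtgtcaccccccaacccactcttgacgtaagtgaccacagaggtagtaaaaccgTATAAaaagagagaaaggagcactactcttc
Il17f, chr1:20784271-20784420, minus strand: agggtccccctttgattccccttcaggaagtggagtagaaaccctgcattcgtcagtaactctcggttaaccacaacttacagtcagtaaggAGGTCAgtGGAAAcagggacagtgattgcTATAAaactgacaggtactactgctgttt
Il2, chr3:37125955-37126104, minus strand: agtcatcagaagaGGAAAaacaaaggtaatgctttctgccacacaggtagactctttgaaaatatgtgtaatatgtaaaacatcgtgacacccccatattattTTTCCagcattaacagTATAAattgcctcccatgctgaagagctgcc
Il21, chr3:37232637-37232786, minus strand: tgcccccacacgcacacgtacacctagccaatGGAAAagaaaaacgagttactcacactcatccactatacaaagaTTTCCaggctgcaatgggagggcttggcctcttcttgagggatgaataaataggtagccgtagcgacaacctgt
Ifng, chr10:118440896-118441045, plus strand: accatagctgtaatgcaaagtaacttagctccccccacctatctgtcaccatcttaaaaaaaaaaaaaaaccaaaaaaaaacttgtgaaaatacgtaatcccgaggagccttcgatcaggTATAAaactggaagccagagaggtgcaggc
All 8 genes matched a RefSeq promoter. TATAA was found in 5 of the 8, the printed ones other than Il21 and also Il3, and in 14.2% of 32851 promoters cut the same way. AGGTCA was found in 2 of the 8, Il17a and Il17f, against 8.58% of all promoters. GGAAA was found in 4 of the 8 (Il17f, Il2, Il21 and Csf2), against 37.6%, and TGANTCA in 0 of the 8, against 4.24%. For Csf2 the RefSeq start lies 232 bases upstream of the start of its counted transcript. Its window therefore does not adjoin that start, and its motifs there were not searched. In the other genes the starts differ by 0 to 22 bases. No 2 different motifs overlapped in the windows of the 8 genes. A match describes letters in this window and is not evidence of binding.

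Per unit of transcript length, Ifng was the most abundant of the 8 in each population. In liver Tconv its level was 313 ± 178 TPM (transcript abundance corrected for length, scaled to the same total in each library; SD, n = 8), followed by Il17a at 28.0 ± 17.4, Il17f at 23.5 ± 8.03, Csf2 at 14.8 ± 7.87, Il2 at 10.2 ± 3.45, Il22 at 7.10 ± 1.73 and Il21 at 5.38 ± 5.11 TPM. Ifng made up 68.3 to 82.1% of the summed TPM of the 8 genes in the liver Tconv libraries. In spleen Tconv the order was different: Ifng stood at 42.1 ± 23.4 TPM and Il21 came next at 7.82 ± 7.53, ahead of Il2 at 3.26 ± 1.10 and of Il17f, Csf2, Il17a and Il22, which were at 1.15 TPM or below (n = 8). Il21 was thus the seventh of the 8 cytokines in liver Tconv and the second in spleen Tconv. In liver Treg, Ifng (21.4 ± 11.7 TPM) and Il17a (2.46 ± 1.77 TPM) led, and in spleen Treg Ifng was at 8.11 ± 4.30 TPM with each of the other 7 at 0.40 TPM or below (n = 8 each).

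Il3 was close to absent from all populations. It had 4 counts in 1 library, the first liver Tconv control, and 0 in the other 31, so it did not pass the filter on low counts and was not tested; a count of 0 allows up to 3 counts, or 0.0435 to 0.122 CPM depending on the library (counting error only). The comparisons below therefore concern 7 of the 8 genes. The filter asked for a minimum count in as many libraries as the smallest group has, so a gene could pass through the groups where it is high.

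**Figure D1:**
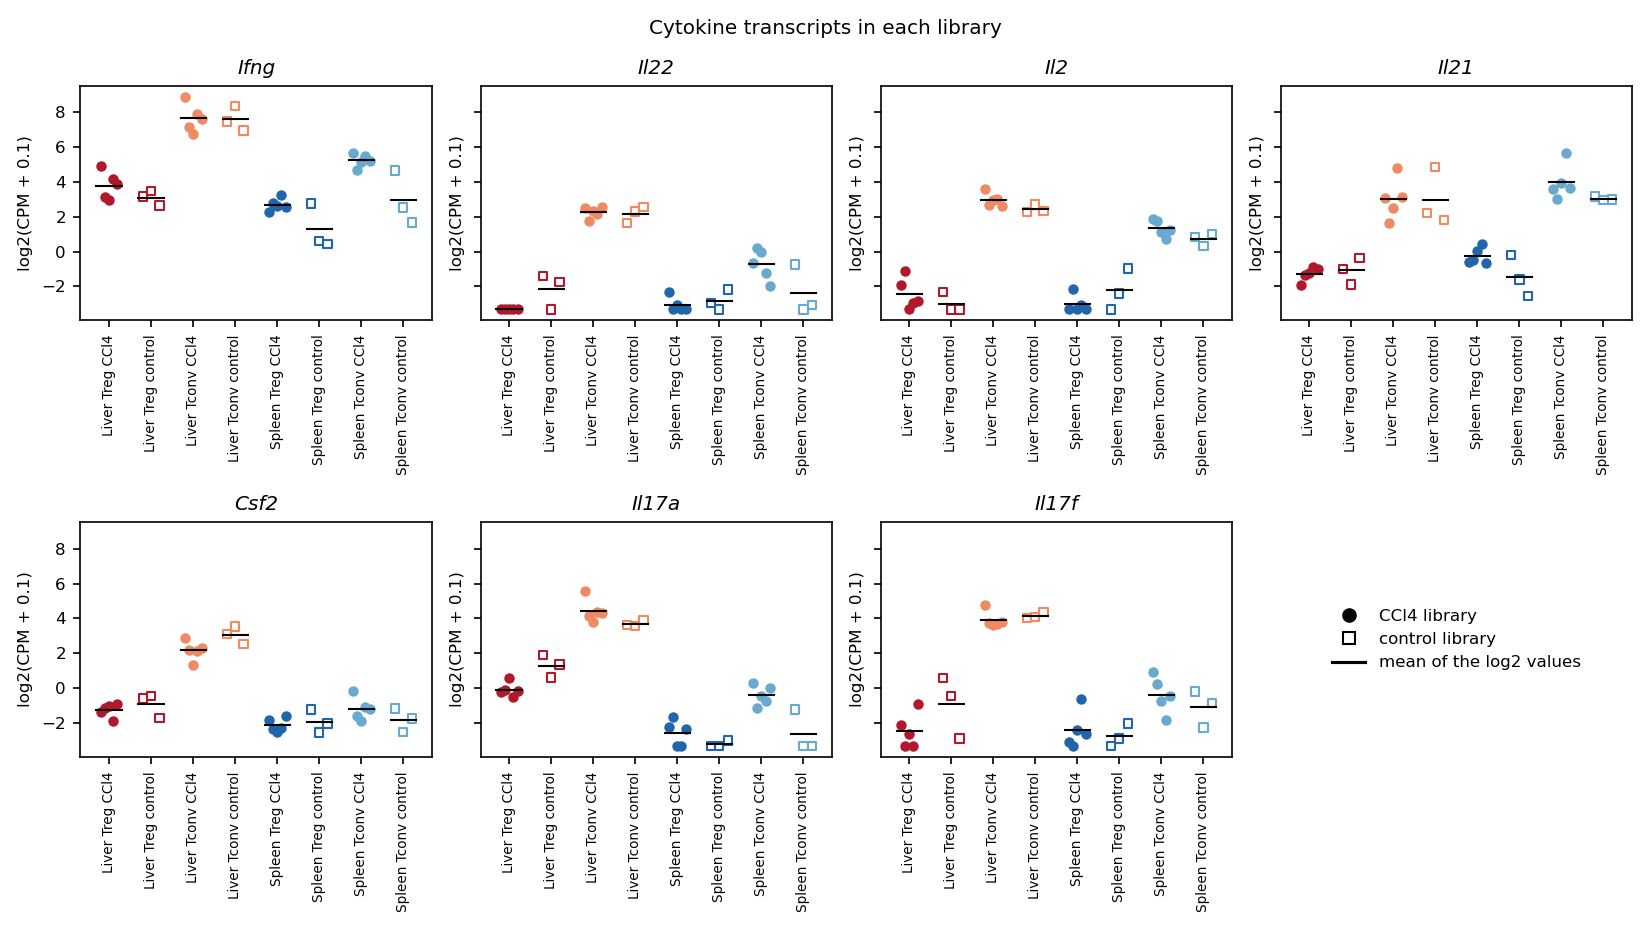
Levels of the 7 tested cytokine genes in each of the 32 libraries, as log2(CPM + 0.1), for the 8 groups along the horizontal axis; circles are CCl4 libraries, squares control libraries and bars the mean of the log2 values. For each gene but Il21 the liver Tconv libraries lie above all others, with Ifng between 108 and 474 CPM there.

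In liver Tconv, 6 of the 7 cytokines were higher than in spleen Tconv, in a contrast averaged over CCl4 and control, and Il21 was the exception. Against these 6 of 7, 27.2% of the 17159 genes tested were called higher and 55% were called in either direction (edgeR quasi-likelihood test, Benjamini-Hochberg adjusted p under 0.05 over all genes). The median log2 fold change of the 7 was 3.79, and that of all genes tested 0.04. For the same 6 genes every liver library lay above every spleen library; 11.5% of genes tested were that way within the CCl4 and within the control libraries.

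Il17a and Il17f had the largest fold changes. Il17a was at 11.6, 16.1 and 48.2 CPM (lowest, median and highest of 8) in liver Tconv and at 0, 0.428 and 1.12 CPM in spleen Tconv. The lowest liver library was above the highest spleen library, and the fitted difference was 58.1-fold (log2 fold change 5.86 ± 0.51, SE; adjusted p = 9.43e-11). Il17f, whose product pairs with IL-17A in a heterodimer, was at 12.2, 14.9 and 27.6 CPM in liver Tconv and at 0.108, 0.561 and 1.82 CPM in spleen Tconv, again without overlap (26.5-fold; log2 4.73 ± 0.63; adjusted p = 2.75e-07). Il22, which acts on epithelial cells and hepatocytes, was at 3.00, 4.86 and 5.78 CPM in liver Tconv and at 0, 0.412 and 1.04 CPM in spleen Tconv (13.9-fold; log2 3.79 ± 0.66; adjusted p = 2.85e-05). Its copy Iltifb followed at a lower level, at 0.217 to 0.933 CPM in liver Tconv and 0 to 0.498 CPM in spleen Tconv.

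Csf2, encoding GM-CSF, was at 2.45, 5.27 and 11.5 CPM in liver Tconv and at 0.0721, 0.284 and 0.802 CPM in spleen Tconv (21.8-fold; log2 4.45 ± 0.39; adjusted p = 1.23e-10). Ifng was at 108, 186 and 474 CPM in liver Tconv and at 3.09, 30.6 and 50.6 CPM in spleen Tconv (10.5-fold; log2 3.39 ± 0.41; adjusted p = 5.15e-08). Il2 differed least among the 6, at 4.71, 6.33 and 11.9 CPM in liver Tconv and 1.15, 2.00 and 3.53 CPM in spleen Tconv (3.25-fold; log2 1.70 ± 0.47; adjusted p = 0.00291). In each of these 3 genes the liver and spleen libraries did not overlap. Without spleen controls 2 and 3, the same 6 genes were called, with log2 fold changes of 2.82 for Ifng, 1.65 for Il2, 4.11 for Csf2, 5.18 for Il17a, 4.36 for Il17f and 3.09 for Il22. Without the first spleen Tconv control the same 6 were called and 3 values were larger, at 4.10 for Ifng, 8.52 for Il17a and 5.63 for Il22.

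Il21, the B cell helper cytokine, was at 2.97, 6.88 and 28.5 CPM in liver Tconv and at 7.61, 10.4 and 49.5 CPM in spleen Tconv, and the libraries of the tissues overlapped widely. The log2 fold change was -0.15 ± 0.45 (adjusted p = 0.81), and -0.21 without spleen controls 2 and 3 and -0.97 (adjusted p = 0.0699) without the second liver Tconv control. Il21 and Il2 are neighbours on chromosome 3, yet only Il2 was called between tissues; whether their 2 changes differ was not tested. The genes of the follicular programme were themselves split: Cxcr5, the chemokine receptor that brings cells to the follicle, was lower in liver Tconv (log2 -1.72, adjusted p = 3.01e-09), and so was Ascl2 (-4.82), a factor of early follicular helper cells, while Bcl6, their defining factor, was higher (0.85), as were Icos (2.96) and Pdcd1 (1.24).

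Around the cytokines, of 22 transcription factors of these genes, 16 were higher and 2 lower in liver Tconv than in spleen Tconv (median log2 1.13), led among the higher ones by Fosl2 (5.23), Rora (3.19) and Irf4 (2.61). Tbx21, the Th1 factor T-bet, rose by 2.26 on the log2 scale. Of 16 surface receptors that mark Th1, Th17 and follicular cells, 13 were higher and 2 lower, and the higher ones included Il12rb2 (3.64) and Il23r (3.08). Of 13 tested receptor chains for the 8 cytokines, 6 were higher and 2 lower, with Ifngr1 (2.96) and Il17rc (1.82) foremost. Of 12 targets that such cytokines induce, 5 were higher, with Cish (2.17) and Socs2 (2.12) first, and 3 lower, among them the interferon target Irgm1 (-0.79). Other T cell cytokines were higher in 13 and lower in 3 of 18 tested, with Il5 (7.01) and Il13 (5.63), both Th2 cytokines, at the top. Il5 averaged 3.9 CPM in liver Tconv and 0.0282 CPM in spleen Tconv. Il13 averaged 0.164 CPM and 0 CPM, so its fitted value depends on the small count that the model adds to libraries at 0.

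Markers of other cells that can make these cytokines were measured beside them. Summed over 6 gamma-delta T cell genes, CPM were 23.3 to 81.0 in liver Tconv and 11.1 to 16.4 in spleen Tconv. Summed over 4 NKT cell genes they were 8.40 to 92.4 in liver Tconv and 9.10 to 14.5 in spleen Tconv; of these 4, Trav11d was at 0 in every Tconv library. Summed over 8 NK and ILC1 genes they were 15.7 to 50.2 in liver Tconv and 12.4 to 25.5 in spleen Tconv. Hepatocyte genes (6) were at 123 to 486 CPM in liver Tconv and 2.78 to 10.8 CPM in spleen Tconv. Genes of ILC2 and ILC3 (6) were at 88.7 to 204 CPM in liver Tconv and 42.1 to 68.5 CPM in spleen Tconv. CD8 T cell genes (2) were lower in liver Tconv, at 8.37 to 19 CPM against 19.1 to 28.8 CPM in spleen Tconv. Trdc, the constant region gene of the delta chain, did not follow the gamma-delta sum. It was at 4.71 to 10.1 CPM in liver Tconv and 8.35 to 10.3 CPM in spleen Tconv. The part of such cells in the differences between tissues was not tested.

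Between liver Treg and spleen Treg, 3 of the 7 genes were called higher in liver and 0 lower, where 30.1% of genes tested were called higher and 60.6% either way. Il17a stood out: it was at 0.606, 1.10 and 3.62 CPM (lowest, median and highest of 8) in liver Treg and at 0, 0.0121 and 0.219 CPM in spleen Treg, where 4 of 8 libraries had no count. The tissues did not overlap, as for 12.9% of genes tested in this direction within each treatment, and the fitted difference was 50.1-fold (log2 5.65 ± 0.65; adjusted p = 1.8e-08). Ifng was at 6.16, 9.90 and 29.4 CPM in liver Treg and 1.24, 5.93 and 9.32 CPM in spleen Treg (2.64-fold; log2 1.40 ± 0.42; adjusted p = 0.00508), and Csf2 at 0.165, 0.375 and 0.627 CPM in liver Treg and 0.0700, 0.125 and 0.327 CPM in spleen Treg (2.54-fold; log2 1.34 ± 0.38; adjusted p = 0.00342), both with overlapping libraries. The calls of Ifng and Csf2 rest on spleen controls 2 and 3: without them the log2 differences were 0.81 (adjusted p = 0.123) and 0.89 (adjusted p = 0.117), while that of Il17a was 6.52 (adjusted p = 6.14e-06). Without the third spleen Treg control alone, Il17a was at 6.53. Il17f (log2 1.54 ± 0.80, adjusted p = 0.0963) and Il21 (-0.52 ± 0.59, adjusted p = 0.47) were not called, although Il17f was without the fourth spleen Treg CCl4 library (2.37, adjusted p = 0.0111). Il2 had at most 0.413 CPM in any Treg library of either tissue (log2 0.03 ± 0.45, adjusted p = 0.959), and Il22 at most 0.278 CPM. The fitted value of Il22 (-0.83 ± 0.82, adjusted p = 0.391) was opposite in sign to its means, 0.0801 CPM in liver Treg and 0.0368 CPM in spleen Treg. Gamma-delta T cell genes summed to 2.96 to 8.79 CPM in liver Treg and 7.81 to 13.9 CPM in spleen Treg. NK and ILC1 genes (8) were also lower in liver Treg, at 0.639 to 4.33 against 4.61 to 13.6 CPM. Genes of ILC2 and ILC3 (6), a list that Treg express in part, were higher in liver Treg, at 311 to 727 against 80.8 to 111 CPM. Hepatocyte genes were at 120 to 458 CPM in liver Treg and 6.19 to 29.6 CPM in spleen Treg. The sums for NKT cells and for CD8 T cells overlapped. The part of such cells was not tested.

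The step from spleen to liver was smaller in Treg than in Tconv for 4 of the 7 genes by a test of the difference itself, where 12.4% of genes tested were lower in this contrast and 19.4% were called either way. The log2 difference of differences was -3.10 ± 0.53 for Csf2 (adjusted p = 7.74e-05), -1.99 ± 0.56 for Ifng (adjusted p = 0.0118), -3.19 ± 1.07 for Il17f (adjusted p = 0.0342) and -4.63 ± 1.34 for Il22 (adjusted p = 0.0152). Without spleen controls 2 and 3, Ifng (-2.01, adjusted p = 0.0219) and Csf2 (-3.22, adjusted p = 0.00139) were called and Il17f (-0.67, adjusted p = 1) and Il22 (-3.59, adjusted p = 0.169) were not. For Il17a the contrast was -0.21 and was not called, beside 5.65 in Treg and 5.86 in Tconv, and with few counts in spleen Treg it was estimated poorly. Over 10 alternatives in processing it ran from -2.35 to 1.34 and stayed uncalled in only 8, so equal steps in Treg and Tconv are not shown. Il2 (-1.67 ± 0.98, adjusted p = 0.263) and Il21 (-0.37 ± 0.74, adjusted p = 0.805) were not called. Il2 also stayed uncalled in only 8 of the 10 alternatives, with values from -1.74 to 1.25. Without the first spleen Tconv control, Ifng was at -2.71 and Il22 at -6.45. Calls were lost for Ifng without spleen Treg control 1 (adjusted p = 0.0907), for Il17f without spleen Treg control 3 (0.358), spleen Treg CCl4 4 (0.123) or spleen Tconv control 2 (0.0532), and for Il22 without spleen Treg control 3 (0.194) or spleen Treg CCl4 1 (0.181). The fitted values of Il22 depend on the small count that the model adds to libraries at 0.

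**Figure D2:**
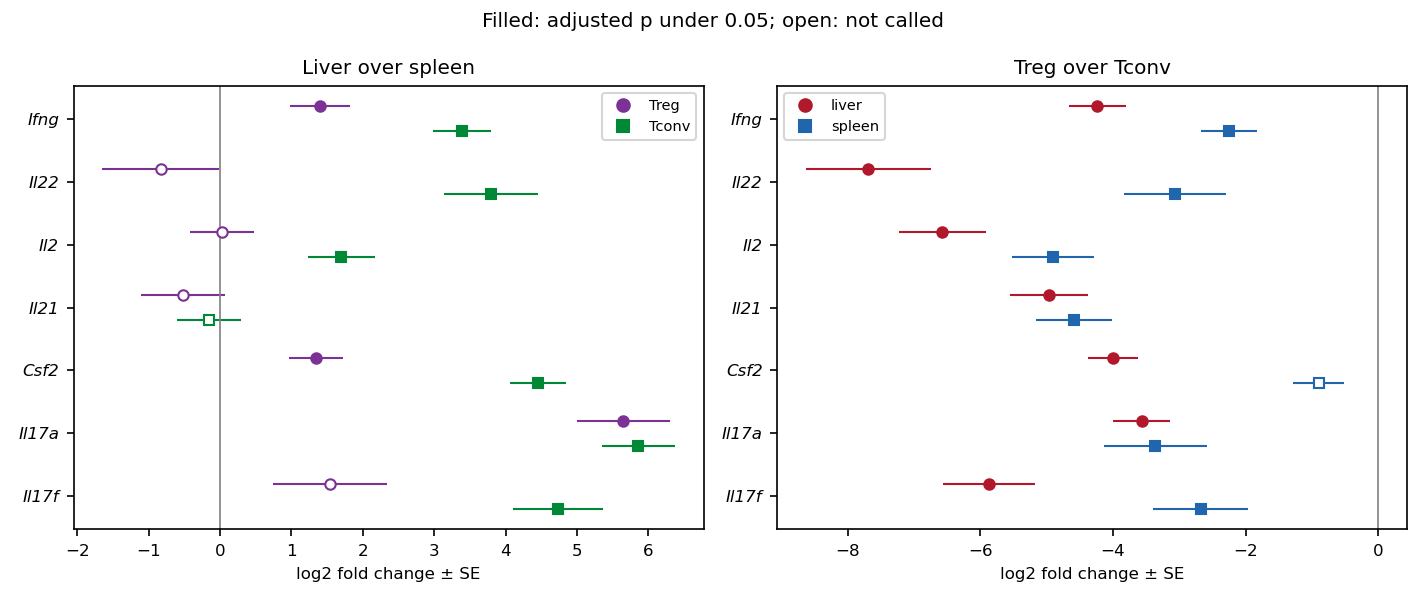
Fitted log2 fold changes with standard errors for liver over spleen (left; circles Treg, squares Tconv) and Treg over Tconv (right; circles liver, squares spleen), filled where the adjusted p is under 0.05. On the left Il17a is at 5.65 in Treg and 5.86 in Tconv and Il21 at -0.52 in Treg and -0.15 in Tconv, and on the right all points lie below 0, with Csf2 in spleen the one not called.

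Treg held less of every tested cytokine than Tconv in the liver. All 7 genes were called lower, where 27.1% of genes tested were called lower and 51.8% either way, and for all 7 every Treg library lay below every Tconv library; 12.8% of genes tested were that way within the CCl4 and within the control libraries. The median log2 fold change was -4.96, also with Il22 placed at its bound, against 0.01 over all genes tested. Il2 showed one of the largest gaps: it was at 0, 0.0335 and 0.355 CPM (lowest, median and highest of 8) in liver Treg and at 4.71, 6.33 and 11.9 CPM in liver Tconv, a log2 fold change of -6.57 ± 0.66 (adjusted p = 1.39e-09). Il22 was at 0 in 6 of 8 liver Treg libraries and at 3.00 CPM or more in each liver Tconv library. Among CCl4 libraries, where all 5 liver Treg libraries were at 0, Il22 was at least 264-fold below its Tconv mean of 4.77 CPM. That bound takes 3 counts over the Treg group as the floor and leaves out the error of the Tconv mean. The fit over both treatments also called Il22 lower (adjusted p = 1.38e-07).

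Il17f (log2 -5.87 ± 0.69, adjusted p = 2.8e-08) and Il21 (-4.96 ± 0.59, adjusted p = 2.9e-08) were also far lower in liver Treg, at no more than 1.39 and 0.673 CPM in any library. Ifng was at 6.16, 9.90 and 29.4 CPM in liver Treg against 108, 186 and 474 CPM in liver Tconv (log2 -4.24 ± 0.43, adjusted p = 1.91e-09), and Csf2 fell by 4.00 on the log2 scale (SE 0.38, adjusted p = 4.42e-10). Il17a had the smallest gap of the 7 and fell by 3.57 on the log2 scale (SE 0.43, adjusted p = 4.2e-08), so that Il17a exceeded Il17f in Treg more than in Tconv: the medians of the 8 libraries were 1.10 and 0.097 CPM in liver Treg and 16.1 and 14.9 CPM in liver Tconv. Tbx21 (log2 -2.71) and Eomes (-3.86) were lower in liver Treg, as were the receptor Il12rb2 (-5.11), Cd40lg (-3.42) and Cxcr6 (-2.88), while Il2ra, the high-affinity receptor chain for IL-2 and itself a Treg marker, was higher (4.25). Over the lists, 8 transcription factors were higher and 8 lower of 22, 7 surface receptors higher and 7 lower of 16, 7 receptor chains higher and 4 lower of 13, and 2 other cytokines higher (Il10, 3.63, and Ebi3, 2.92) and 13 lower of 18. Without the first liver Treg control Il2 was at -8.38, and without the second liver Tconv control Il21 was at -4.14. Summed levels of some lists of markers of other cells that can make these cytokines were also lower in liver Treg than in liver Tconv, without overlap. Summed over 6 gamma-delta T cell genes they were at 2.96 to 8.79 CPM in liver Treg and 23.3 to 81.0 CPM in liver Tconv. Over 8 NK and ILC1 genes they were at 0.639 to 4.33 CPM in liver Treg and 15.7 to 50.2 CPM in liver Tconv. Over 4 NKT cell genes they were at 1.57 to 4.78 CPM in liver Treg and 8.40 to 92.4 CPM in liver Tconv. Other lists did not go this way. CD8 T cell genes (2) overlapped, at 14.8 to 21 CPM in liver Treg and 8.37 to 19 CPM in liver Tconv. Genes of ILC2 and ILC3 (6), a list that Treg express in part, were higher in liver Treg, at 311 to 727 CPM against 88.7 to 204 CPM. Trdc alone overlapped, at 1.86 to 5.76 CPM in liver Treg and 4.71 to 10.1 CPM in liver Tconv. The part of such cells in these cytokine values was not tested.

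In the spleen, 6 of the 7 genes were lower in Treg than in Tconv, where 20.3% of genes tested were called lower and 39.7% either way. Il2 was at 0, 0.0105 and 0.413 CPM in spleen Treg and at 1.15, 2.00 and 3.53 CPM in spleen Tconv (log2 -4.90 ± 0.62, adjusted p = 1.46e-07). Il21 was at 0.0728, 0.589 and 1.26 CPM in spleen Treg and at 7.61, 10.4 and 49.5 CPM in spleen Tconv (log2 -4.59 ± 0.57, adjusted p = 9.71e-08). These were the 2 of the 7 genes whose spleen libraries did not overlap; 9.55% of genes tested were lower in that way within each treatment. Ifng (log2 -2.25 ± 0.42, adjusted p = 6.34e-05), Il17a (-3.36 ± 0.78, adjusted p = 0.000894), Il17f (-2.68 ± 0.71, adjusted p = 0.00319) and Il22 (-3.06 ± 0.77, adjusted p = 0.00229) were lower with overlapping libraries. Csf2 was not called (-0.90 ± 0.38, adjusted p = 0.0644). Without spleen controls 2 and 3, the same 6 genes were called. The calls of Il17a and Il22 rest on the first spleen Tconv control, without which their log2 fold changes were -0.69 (adjusted p = 0.889) and -1.23 (adjusted p = 0.53), and that of Ifng was -1.54. Limma-voom did not call Il17a (adjusted p = 0.098), and limma on log2(TPM + 1) called neither Il17a (adjusted p = 0.0525) nor Il17f (adjusted p = 0.0894). Without the third spleen Treg control, values were larger for Il2 (-5.73), Il17a (-4.24), Il17f (-3.37) and Il22 (-3.96), as they were without CCl4 library 2 for Il2 (-5.74), 4 for Il17f (-3.52) and 1 for Il22 (-3.96) of spleen Treg. NKT cell genes (4) summed to 2.40 to 5.08 CPM in spleen Treg and 9.10 to 14.5 CPM in spleen Tconv, without overlap. NK and ILC1 genes (8) summed to 4.61 to 13.6 CPM in spleen Treg and 12.4 to 25.5 CPM in spleen Tconv. Gamma-delta T cell genes (6) summed to 7.81 to 13.9 CPM in spleen Treg and 11.1 to 16.4 CPM in spleen Tconv. CD8 T cell genes (2) overlapped, at 14.1 to 22.2 CPM in spleen Treg and 19.1 to 28.8 CPM in spleen Tconv. Genes of ILC2 and ILC3 (6) were higher in spleen Treg, at 80.8 to 111 CPM against 42.1 to 68.5 CPM. Their part was not tested.

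CCl4 was followed by no called change of these cytokines in liver Tconv, the population that held most of them. Of the 7 genes 0 were called (edgeR), as with DESeq2 and limma-voom, and 0 had an unadjusted p under 0.05; 0.326% of all genes tested were called. Ifng was at 474, 140, 108, 240 and 195 CPM in the 5 CCl4 libraries and at 177, 326 and 124 CPM in the 3 controls. The groups overlapped (log2 0.15 ± 0.52, adjusted p = 0.942). Il22 was at 5.58, 3.22, 4.90, 4.43 and 5.73 CPM with CCl4 and at 3.00, 4.83 and 5.78 CPM in controls (log2 0.07 ± 0.80, adjusted p = 0.985), and Il21 averaged 10.5 ± 9.61 CPM with CCl4 and 12.1 ± 14.2 CPM in controls (SD, n = 5 and 3), also overlapping (log2 -0.22 ± 0.63, adjusted p = 0.927). Il2 was at 11.9, 6.26, 7.60, 8.08 and 6.09 CPM with CCl4 and at 4.71, 6.41 and 4.88 CPM in controls, with overlap (log2 0.58 ± 0.65, adjusted p = 0.766).

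The value closest to the threshold in liver Tconv was that of Csf2, at 7.23, 4.43, 2.45, 4.24 and 4.82 CPM in CCl4 libraries and 8.48, 11.5 and 5.73 CPM in controls (log2 -0.89 ± 0.45, unadjusted p = 0.0558, adjusted p = 0.398). Il17a was at 48.2, 17.4, 14.0, 20.4 and 19.7 CPM with CCl4 and at 12.1, 11.6 and 14.7 CPM in controls, with 4 of the 5 CCl4 libraries above all controls (log2 0.90 ± 0.55, adjusted p = 0.51). Il17f was at 27.6, 13.1, 12.2, 12.4 and 13.5 CPM with CCl4 and at 16.2, 16.8 and 20.5 CPM in controls, with 4 of the 5 CCl4 libraries below all controls (log2 -0.18 ± 0.72, adjusted p = 0.949). The TPM ratio of Il17a to Il17f within a library, computed after these levels were seen and given as a description, was 1.74, 1.34, 1.13, 1.63 and 1.47 in the CCl4 libraries and 0.755, 0.690 and 0.723 in the controls. Beside these values, the summed CPM of 4 NKT cell genes was 8.40 to 16.1 in the CCl4 libraries and 39.5 to 92.4 in the controls. Zbtb16, the factor PLZF, was at 3.78 ± 1.82 CPM with CCl4 and 25.1 ± 10.7 CPM in controls (SD, n = 5 and 3). Other lists overlapped between CCl4 and control libraries. Gamma-delta T cell genes (6) were at 25.4 to 36.4 against 23.3 to 81.0 CPM. NK and ILC1 genes (8) were at 17.5 to 50.2 against 15.7 to 26.5 CPM. Genes of ILC2 and ILC3 (6) were at 88.7 to 165 against 124 to 204 CPM. The part of such cells in the cytokine values was not tested. Of the fixed lists, 1 gene was called in liver Tconv, Tnfsf11 (RANKL), which was higher with CCl4 (log2 0.70, adjusted p = 0.0409).

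**Figure D3:**
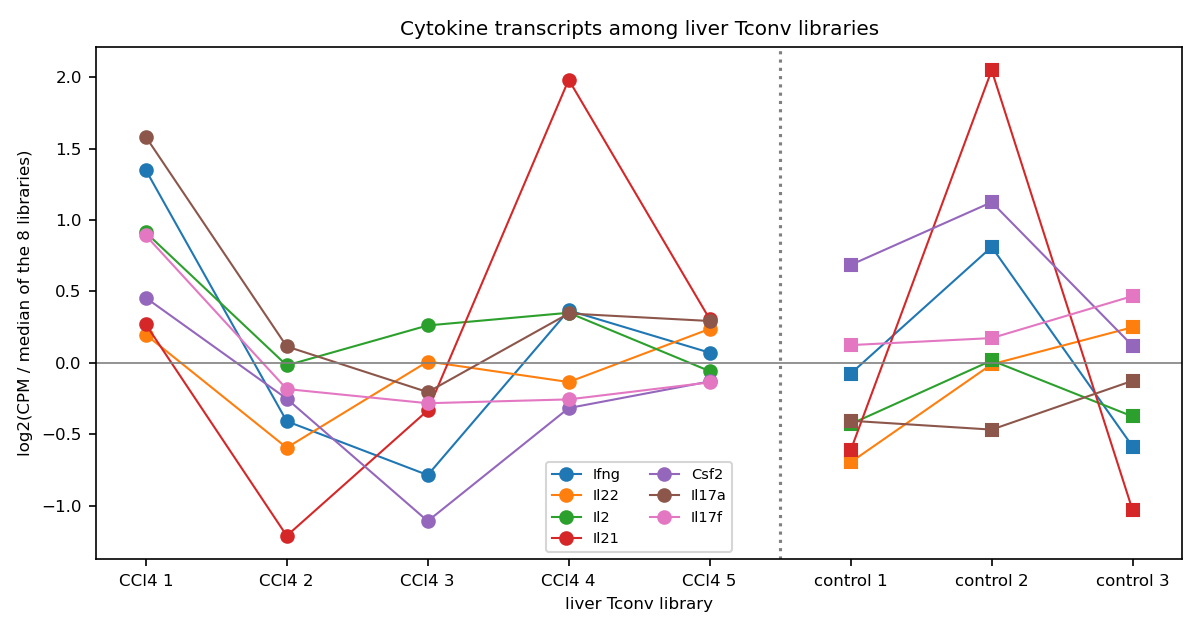
The 7 tested cytokine genes in the 8 liver Tconv libraries, each as log2 of its CPM over its own median of the 8; circles are CCl4 libraries 1 to 5 and squares control libraries 1 to 3, and the lines only link points of 1 gene, since libraries have no order. Ifng, Il2, Il17a and Il17f are highest in CCl4 library 1, Csf2 is highest in control library 2, and Il21 peaks in CCl4 library 4 (27.2 CPM) and control library 2 (28.5 CPM).

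In liver Treg, 1 of the 7 cytokines passed the test with CCl4, Il22, and the other Th17 genes, Il17a and Il17f, had lower means that missed it. Il22 had 0 counts in all 5 CCl4 libraries and 11, 0 and 6 counts in the 3 controls (edgeR adjusted p = 0.0256). With 3 counts over the CCl4 group as the floor, it was at least 8.85-fold below the control mean of 0.16 CPM. This bound leaves out the error of that mean, which rests on 2 of the 3 controls. One of 7 members called lower stands against 7.34% of genes tested called lower and 14.9% called either way. That call rests on 2 control libraries: without the first control it was lost (adjusted p = 0.129), as without the third (adjusted p = 0.0591). Limma-voom (adjusted p = 0.237) and limma on log2(TPM + 1) (0.293) or log2(TPM + 0.1) (0.063) did not call it either, and DESeq2 did (0.00256). Iltifb, with which Il22 shares sequence, was at 0 in all 5 CCl4 libraries. Il17a was at 0.746, 0.828, 1.37, 0.606 and 0.791 CPM with CCl4 and at 3.62, 1.42 and 2.46 CPM in controls. Every CCl4 library was below every control, as was the case for 9.02% of genes tested, and the log2 fold change was -1.52 ± 0.56 with an unadjusted p of 0.011 and an adjusted p of 0.0653.

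Il17f was at 0.133, 0, 0.0609, 0 and 0.435 CPM with CCl4 and at 1.39, 0.627 and 0.0337 CPM in controls of liver Treg, with overlap (log2 -2.59 ± 0.95, unadjusted p = 0.0111, adjusted p = 0.0658). Of 11 alternatives in processing, 5 called Il17a, DESeq2 among them (adjusted p = 0.0299), and 1 called Il17f, a filter at a mean of 1 CPM (adjusted p = 0.0468). Limma-voom called neither, and over all alternatives and left-out libraries the adjusted p ran from 0.00692 to 0.28 for Il17a and from 0.0195 to 0.425 for Il17f, highest without the first control for both. Il17a was called without CCl4 library 3 (-1.75, adjusted p = 0.0491), and Il17f without control 3 (-3.12, adjusted p = 0.0275) or CCl4 library 5 (-3.74, adjusted p = 0.0195). Gamma-delta T cell genes also had lower values in these libraries, at 2.96 to 5.30 summed CPM with CCl4 and 6.73 to 8.79 in controls over 6 genes. Trdc alone overlapped, at 1.86 to 4.21 CPM with CCl4 and 3.44 to 5.76 CPM in controls. NK and ILC1 genes were at 0.639 to 2.49 CPM with CCl4 and 2.72 to 4.33 CPM in controls over 8 genes, with Klra4, Klra8 and Ncr1 at 0 throughout. Genes of ILC2 and ILC3, a list that Treg themselves express in part (Il1rl1), were at 311 to 727 CPM with CCl4 and 327 to 365 CPM in controls. Their part in the Il17a, Il17f and Il22 values was not tested. Ifng (log2 0.84 ± 0.57, adjusted p = 0.374), Il2 (1.65 ± 1.12, adjusted p = 0.371), Csf2 (-0.52 ± 0.50, adjusted p = 0.575) and Il21 (-0.32 ± 0.87, adjusted p = 0.872) were not called. The median log2 fold change of the 7 was -0.52, also with Il22 at its bound, against 0 over all genes tested.

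With CCl4, 14.9% of all genes tested were called in liver Treg, against 0.326% in liver Tconv, 1.18% in spleen Treg and 1.07% in spleen Tconv, and genes of the lists were among them. Of 12 targets of such cytokines, 9 were lower with CCl4 and 1 higher. The lower ones included Bcl2 (log2 -1.78), a survival factor, the interferon-induced GTPases Irgm1 (-0.90), Gbp2 (-0.89) and Gbp4 (-0.77), and the interferon response factor Irf1 (-0.58), while Cish, a target of IL-2 signalling, was higher (0.72). Among 13 tested receptor chains, Csf2rb, the signalling chain shared by the receptors for GM-CSF and IL-3, was higher (3.23), and Ifngr2 (-0.73) and Il17ra (-0.59) were lower. Of 18 other T cell cytokines, Il5 (3.55), Xcl1 (3.00), Tnfsf11 (1.98) and Ebi3 (1.33) were higher and Lta (-1.35) was lower. The transcription factors gave 4 higher, led by Fosl2 (0.91) and Prdm1 (0.69), and 2 lower of 22, with Tbx21 not called, and the surface receptors 3 higher, led by Cxcr6 (1.84), and 1 lower of 16.

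**Figure D4:**
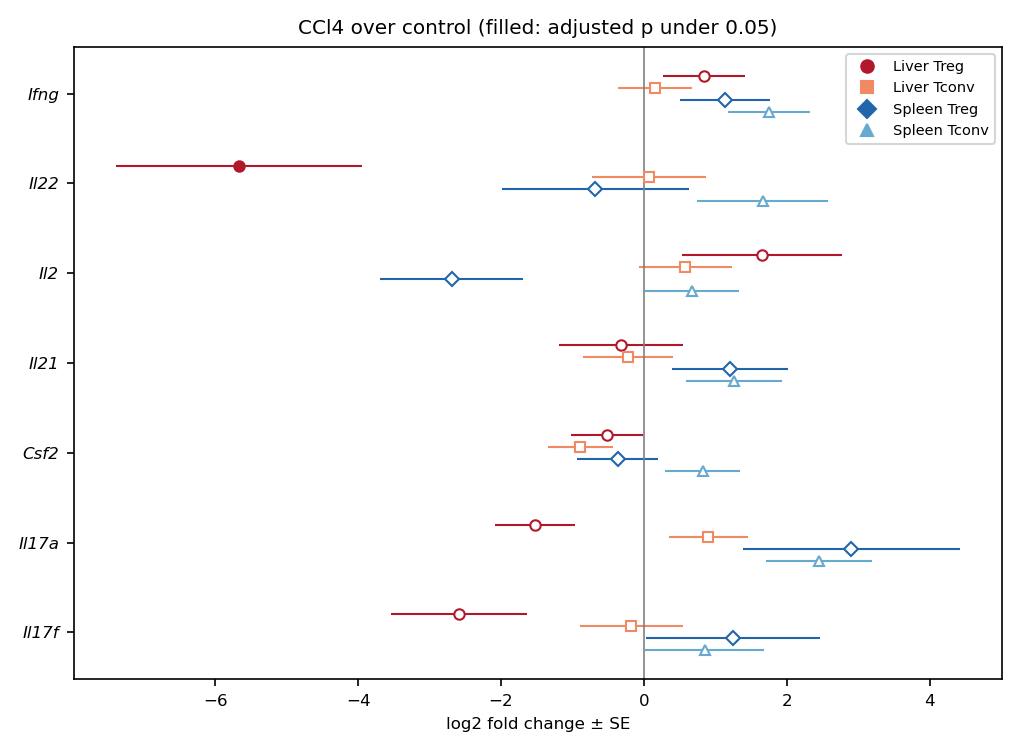
Fitted log2 fold changes of CCl4 over control with standard errors for the 7 tested cytokine genes in the 4 populations, filled where the adjusted p is under 0.05. Il22 in liver Treg, at -5.67, is the filled point, and that fitted value depends on the small count added to libraries at 0; the Il17a estimates are at -1.52 in liver Treg and 2.45 in spleen Tconv.

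In spleen Tconv, 0 of the 7 cytokines were called with CCl4 by edgeR, where 1.07% of genes tested were called, although Ifng and Il17a had higher values in every CCl4 library than in any control; 4.1% of genes tested did so. These 2 genes had unadjusted p-values under 0.05, DESeq2 called 1 gene (Il17a) and limma-voom called 0. Ifng was at 50.6, 25.7, 35.5, 44.4 and 36.3 CPM in CCl4 libraries and at 25, 5.66 and 3.09 CPM in controls (log2 1.75 ± 0.57, unadjusted p = 0.0046, adjusted p = 0.122). Il17a was at 1.12, 0.346, 0.622, 0.509 and 0.910 CPM with CCl4 and at 0.326, 0 and 0 CPM in controls (log2 2.45 ± 0.74, unadjusted p = 0.00255, adjusted p = 0.0937). The low controls are the libraries numbered 2 and 3, in which Fos was low. Against control 1 alone the log2 fold changes were 0.62 for Ifng and 1.10 for Il17a (adjusted p = 1 for both, with the spread of the 1 control taken from the rest of the fit), and without control 1 they were 3.18 (adjusted p = 0.00396) and 7.78 (adjusted p = 0.00192). Myeloid marker genes (11) summed to 21.9 to 45.8 CPM in CCl4 and 13.6 to 19.5 CPM in control libraries of spleen Tconv. Hepatocyte genes (6) were at 4.97 to 10.8 CPM with CCl4 and 2.78 to 4.44 CPM in controls. NKT cell genes (4) were at 10.8 to 14.5 against 9.10 to 10.8 CPM. CD8 T cell genes (2) were lower with CCl4, at 19.1 to 23.5 against 25.7 to 28.8 CPM. The sums for gamma-delta T cells, for NK and ILC1 and for ILC2 and ILC3 overlapped. The part of such cells was not tested. Il21 was at 12, 8.05, 15.0, 49.5 and 12.6 CPM with CCl4 and at 8.85, 7.61 and 7.78 CPM in controls (log2 1.26 ± 0.67, adjusted p = 0.391). Il2 was at 3.53, 3.21, 2.09, 1.53 and 2.29 CPM with CCl4 and at 1.70, 1.15 and 1.91 CPM in controls, with overlap (log2 0.67 ± 0.66, adjusted p = 0.713). Csf2 (0.82 ± 0.53, adjusted p = 0.506), Il17f (0.85 ± 0.83, adjusted p = 0.705) and Il22 (1.66 ± 0.92, adjusted p = 0.427) were not called, and of these Il22 was without control 1 (5.34, adjusted p = 0.0286).

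In spleen Treg, 0 of the 7 genes were called with CCl4 by edgeR, DESeq2 or limma-voom, where 1.18% of genes tested were called, and 1 gene, Il2, had an unadjusted p under 0.05 (0.0119; adjusted p = 0.21). Il2 had 0, 4, 0, 1 and 0 counts in the CCl4 libraries and 0, 5 and 17 counts in the controls, and without spleen controls 2 and 3 its sign turned (log2 3.04, adjusted p = 0.888). Ifng was at 4.77, 6.71, 6.07, 9.32 and 5.80 CPM with CCl4 and at 6.69, 1.44 and 1.24 CPM in controls (log2 1.13 ± 0.63, adjusted p = 0.444), again with the low values in controls 2 and 3. Without those libraries its log2 fold change was -0.03. Il17a had 17 counts over the 5 CCl4 libraries and 1 over the 3 controls, a rate ratio of 9.88 with an exact 95% interval of 1.55 to 413 that covers counting error only (edgeR adjusted p = 0.409). Csf2 (log2 -0.37 ± 0.57, adjusted p = 0.849), Il17f (1.25 ± 1.22, adjusted p = 0.721), Il21 (1.20 ± 0.81, adjusted p = 0.555) and Il22 (-0.68 ± 1.31, adjusted p = 0.883) were not called. Myeloid marker genes (11) summed to 69.9 to 127 CPM in CCl4 and 22.7 to 29.9 CPM in control libraries of spleen Treg. NK and ILC1 genes (8) were at 7.07 to 13.6 CPM with CCl4 and 4.61 to 6.77 CPM in controls. Hepatocyte genes (6) were also higher, at 19.4 to 29.6 against 6.19 to 9.68 CPM. Gamma-delta T cell genes (6) were lower with CCl4, at 7.81 to 10.7 against 11.6 to 13.9 CPM. The sums for NKT cells, for CD8 T cells and for ILC2 and ILC3 overlapped. The part of such cells was not tested.

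**Figure D5:**
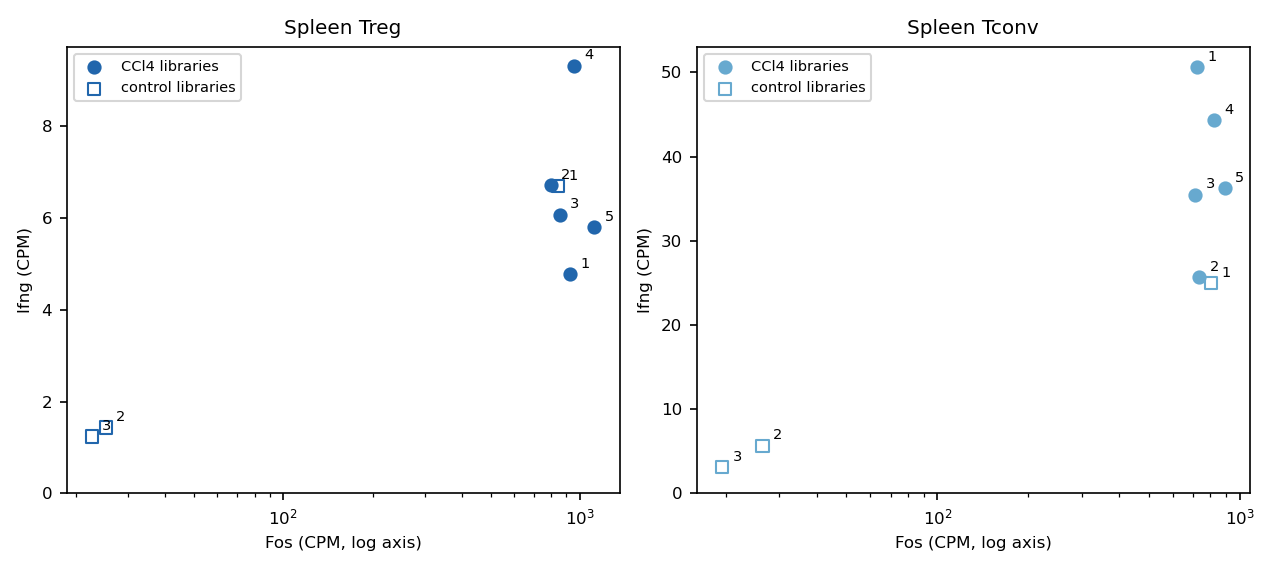
Ifng (CPM, vertical) against Fos (CPM, log scale, horizontal) in the spleen libraries, with Treg on the left and Tconv on the right, filled circles for CCl4 and open squares for control libraries, and sample numbers beside the points. Controls 2 and 3 lie at 19.4 to 26.4 CPM of Fos with low Ifng in both cell types, and control 1 lies among or beside the CCl4 libraries.

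The lists gave few calls in the spleen. In spleen Treg, Ifngr1 (log2 0.53), Fosl2 (1.25) and Tnfsf11 (0.66) were higher with CCl4, and in spleen Tconv Ifngr1 (0.48), Fosl2 (1.02), Tnfsf11 (0.69) and Lif (2.98). Leaving out spleen controls 2 and 3 keeps only 1 control library in each spleen population. A fit to so few controls cannot show whether these calls rest on the libraries left out.

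Whether the response to CCl4 differed between populations was tested directly. Of the 7 cytokines, 0 were called for liver Treg against liver Tconv (3.65% of genes tested), for liver Treg against spleen Treg (5.48%) or for liver Tconv against spleen Tconv (0.0874%) by edgeR. At an unadjusted p under 0.05 there were 2, 4 and 2 genes in these 3 contrasts, DESeq2 called 2, 2 and 0, and limma-voom called 0 in each. The clearest was Il17a in liver Treg against liver Tconv, where a log2 fold change of -1.52 in Treg stood against 0.90 in Tconv (difference -2.42 ± 0.79, unadjusted p = 0.00458, adjusted p = 0.0879; DESeq2 adjusted p = 0.0268). In that contrast Il22 was at -5.74 (adjusted p = 0.11) and Il17f at -2.41 ± 1.22 (adjusted p = 0.346), while Ifng (0.69), Il2 (1.07), Csf2 (0.37) and Il21 (-0.10) had adjusted p of 0.765 or more. For liver Treg against spleen Treg, Il2 was at 4.35 (adjusted p = 0.0877), Il17a at -4.42 ± 1.58 (0.102), Il17f at -3.84 ± 1.55 (0.157) and Il22 at -4.99 ± 2.25 (0.22), all with few counts in spleen Treg, and Ifng (-0.30), Csf2 (-0.15) and Il21 (-1.53) had adjusted p of 0.535 or more. For liver Tconv against spleen Tconv all 7 differences were negative, with Csf2 at -1.70 ± 0.69 (adjusted p = 0.371) and Ifng at -1.60 ± 0.75 (0.463). Il2 (-0.09), Il17a (-1.56), Il17f (-1.03), Il21 (-1.48) and Il22 (-1.59) were at adjusted p of 0.586 or more. These values moved over 10 alternatives, the fit without spleen controls 2 and 3 among them. In this contrast Ifng ran from -2.20 to -0.47, Csf2 from -1.75 to -1.03 and Il17a from -3.22 to -0.12. For liver Treg against spleen Treg, Il2 ran from -1.40 to 4.54 and Ifng from -0.90 to 0.87, each with a change of sign.

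Among the 8 liver Tconv libraries the cytokines varied together in part. After each group's mean was removed, the log2 CPM of Il17a and Il17f had a Pearson r of 0.96, those of Ifng and Csf2 an r of 0.91 and those of Ifng and Il2 an r of 0.79 (n = 8 libraries), whereas Il21 had an r of 0.05 with Il17a and -0.09 with Il17f. These are descriptions, and the libraries share depth and composition across genes. The first CCl4 library held the highest Ifng, Il2, Csf2, Il17a and Il17f of the 5 CCl4 libraries. Without it, an alternative chosen after seeing the data, the r was 0.63 for Il17a and Il17f, 0.86 for Ifng and Csf2 and 0.51 for Ifng and Il2 (n = 7), and Ifng and Il17f turned to -0.39, against 0.61 with it. Il21 and Ifng had an r of 0.63 with that library and 0.89 without it. Over all 32 libraries and 8 groups the pair Il17a and Il17f had an r of 0.07 for the deviations from group means, with many libraries at or near 0.

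By likeness of levels over the 32 libraries, the gene nearest to Il2 was Cd40lg, the CD40 ligand (r = 0.96, log2 CPM, of 9467 genes with a mean of 5 CPM or more), followed by Themis and Mfsd6 (0.94 each). Ifng was nearest to Ube2s (0.94), Csf2 to Ppp1cc (0.96), Il17a to Oser1 and Stk17b (0.96 each), Il17f to Fasl (0.93), Il22 to Trim13 and Btg1 (0.94 each) and Il21 to Ifitm10 (0.93). Within groups, the deviations of Ifng were most like those of Gadd45b (0.84), Fosb (0.81) and Gem (0.80), and those of Il21 most like those of Cxcl10 (0.72), Cyfip1 (0.71) and Rgs16 (0.70). All 32 libraries entered these values, among them the spleen controls in which Fos and Ifng were both low. No value without those controls is given, and how far the likeness rests on them was not tested.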

How the data were processed

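RNA of sorted T cells was sequenced in 32 libraries, in 8 groups taken from the sample titles. Per the labels' protocols, cells were sorted into Trizol, and cDNA was made with the Clontech Ultra Low v4 kit and NexteraXT. Per the submitters' processing notes, bcl2fastq 2.19, kallisto 0.44.0 and DESeq2 were used with GRCm38.p6; the sources used here do not give the annotation release or strand setting. Per the file headers, the authors deposited estimated counts and TPM for each of 118489 transcripts. These were summed to genes by GENCODE M21 transcript IDs, which matched 98.514% of transcripts; unmatched transcripts, 0.684 to 0.823% of counts per library, were dropped. No 2 libraries held identical values.

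Sums of estimated counts were rounded and fitted in edgeR 4.0.16 (R 4.3.3): filterByExpr with the 8 groups (17159 genes), TMM, 1 quasi-likelihood model of the 8 groups with 24 residual degrees of freedom, contrasts averaged over treatment where it is not compared. Adjusted p is the Benjamini-Hochberg value over all genes tested, called under 0.05; the SE is the absolute log2 fold change over the square root of F. DESeq2 1.42.0, limma 3.58.1 (voom, and log2(TPM + 1) or + 0.1) and other filters were alternatives. The scripts were tested on simulated data. Figures used Python 3.11.15 and matplotlib 3.10.9.

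The 8 genes and the lists beside them (receptors, transcription factors, surface receptors, targets, other cytokines, markers) were chosen with earlier results of these data known. The 7 tested genes are named in every comparison, and Il3 once since it was not tested. Of a list, called genes are named, largest change first, at most 8. Tbx21, Bcl6 and Pdcd1 are exceptions, named after their values were seen, as were Fos, Zbtb16, Iltifb and Trdc. No list was tested, and some called list genes are not reported here.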

Additional observations from a re-analysis of the deposited data

Results flagged for a closer look

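In groups of 5, single libraries stood far from the others for 7 of 27 combinations of gene and group examined. Chance flags about 1 in 20 where values are normally distributed. Skewed CPM and groups mostly at 0 are flagged more readily. The rate for such values was not computed, so whether 7 of 27 exceeds chance was not tested. In liver Tconv CCl4 library 1, Il17a was at 48.2 CPM where the others were at 14.0 to 20.4, and Il17f was at 27.6 where the others were at 12.2 to 13.5. In CCl4 libraries numbered 4, Il21 was at 27.2 CPM in liver Tconv (others 2.97 to 8.51) and at 49.5 CPM in spleen Tconv (others 8.05 to 15.0). The other 3 are in spleen Treg with CCl4 and rest on few counts: Il2 at 0.125 CPM in library 2 (others 0 to 0.0209), Il17f at 0.544 CPM in library 4 (others 0 to 0.092) and Il22 at 0.0973 CPM in library 1 (others 0 to 0.0184).

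The difference between liver and spleen was not the same in Treg and Tconv for 4 genes by the interaction term: Ifng at -1.99, Csf2 at -3.10, Il17f at -3.19 and Il22 at -4.63 (log2, Treg minus Tconv).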

How the results depend on the processing

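Of 2119 values for single genes under the alternatives, 2060 kept their direction and side of the threshold, 37 crossed into it, 22 out of it, and 0 called values changed sign; 72 of the 2060 differed in sign while called in neither. For CCl4 in liver Treg, with 1 gene called, the count was 3 at a mean of 1 CPM, 2 with DESeq2 or without spleen controls 2 and 3, and 0 with limma-voom, with log2(TPM + 0.1) or with a replicate block, and 0 to 2 without single libraries (0 without control 1; 2 without CCl4 3 or CCl4 5). For CCl4 in spleen Tconv, with 0 called, it was 1 with DESeq2, with log2(TPM + 0.1) and with the block, and 0 to 3 without single libraries (3 without control 1). Without spleen controls 2 and 3, 1 gene was called between liver and spleen Treg in place of 3, 2 in place of 4 for the difference between Treg and Tconv, and 1 in place of 0 for the CCl4 effect of liver Treg against liver Tconv; that effect gave 1 with log2(TPM + 1) and 2 with DESeq2, and the one of liver Treg against spleen Treg 2 with DESeq2. Between Treg and Tconv in spleen, counts ran from 4 to 7. For the difference between Treg and Tconv in the step from spleen to liver, they ran from 2 to 6 over 10 alternatives. The cause was not tested. Without single libraries, counts ran from 0 to 1 for liver Treg against spleen Treg (1 without liver Treg control 1, spleen Treg control 1 or spleen Treg CCl4 2), 0 to 2 for liver Tconv against spleen Tconv (2 without spleen Tconv control 1), and 2 to 4 for the difference between Treg and Tconv (2 without spleen Treg control 3), with Ifng lost without spleen Treg control 1 (adjusted p = 0.0907), Il17f without spleen Treg CCl4 4 (0.123) or spleen Tconv control 2 (0.0532) and Il22 without spleen Treg CCl4 1 (0.181). All 11 alternatives and 16 left-out libraries gave 6 genes for liver over spleen Tconv and 7 for Treg under Tconv in liver.

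Deviations from group means correlated weakly between same-numbered samples (r from -0.098 to 0.133 over 28 pairs of groups, 0 of them with every r above 0.1). Between Treg and Tconv of the same tissue and treatment each r was positive (0.015 to 0.133). Between liver and spleen Tconv of the same treatment each r was positive too (0.01 to 0.115). Between liver and spleen Treg of the same treatment r ran from -0.018 to 0.068. The numbers were not taken as pairs, and the block is an alternative; it changed the calls named above and that of Csf2 between Treg and Tconv in spleen (adjusted p = 0.0353). Counts near 0 in Treg limit Il2, Il17a, Il17f and Il22 there, and 3 controls limit each CCl4 comparison.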

Other observations

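Il21 was highest in the CCl4 library numbered 4 in each of the 4 populations, at 0.44 CPM in liver Treg, 27.2 CPM in liver Tconv, 1.26 CPM in spleen Treg and 49.5 CPM in spleen Tconv. Among Tconv, the CCl4 library numbered 1 was the highest of the 5 for Ifng, Il2, Csf2, Il17a and Il17f in both tissues, with Ifng at 474 CPM in liver and 50.6 CPM in spleen. The labels do not say whether a number marks the same mouse in different populations. In the control libraries of liver Tconv, Il21 was at 28.5 CPM in number 2 against 4.51 and 3.37 CPM in numbers 1 and 3.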
